A study of Mus musculus with 6 samples.

Results

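Mature arms of the brain miRNAs miR-137, miR-138, miR-218 and miR-488 were examined in the right substantia nigra (SN) of hα-syn(A53T) mice with and without Ang-(1-7). The 8 members were taken by name, namely mmu-miR-137-3p, mmu-miR-138-5p, mmu-miR-138-1-3p, mmu-miR-138-2-3p, mmu-miR-218-5p, mmu-miR-218-1-3p, mmu-miR-488-3p and mmu-miR-488-5p, written below without the species prefix. All 8 were found among the 1393 annotated miRNAs of the table. No threshold was applied, but the list was selected on the measured levels of the same 6 libraries, with the difference between the groups known. The group values of these arms, counts of calls and intervals included, are therefore a description. No p-value of a single arm is given. Small RNA was sequenced from 6 libraries, 3 for each group. By the methods, male C57BL/6J mice of 8 weeks received AAV-hα-syn(A53T) into the right SNpc, whereas the labels name an overexpressing strain. Both groups carried hα-syn(A53T). The Ang-(1-7) group then had Ang-(1-7) infused above the SN at 1.1 nmol in 0.25 μL per hour for 4 weeks, and the hα-syn(A53T) group had artificial cerebrospinal fluid at the same rate and for the same time. Mice without hα-syn(A53T) were not analysed here. The sources used here do not give the promoter of the vector or whether 1 library holds 1 mouse or pooled mice, so the errors measure only how far libraries spread, and that spread may be technical.

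A miRNA is cut from a hairpin precursor that leaves a 5p and a 3p arm. One arm is usually kept in the Argonaute complex as the guide, and the other is mostly degraded. The guide pairs with target mRNAs chiefly through its seed, which is bases 2 to 8. In neurons, miR-137 acts on genes of synaptic vesicle release and neuronal maturation, and its locus in humans is associated with schizophrenia. In rat hippocampal neurons, miR-138 limits the growth of dendritic spines through the depalmitoylating enzyme APT1. In mice, miR-218 is needed for motor neuron function and comes from introns of the axon guidance genes Slit2 and Slit3. miR-488 lies in an intron of Astn1, which encodes the neuronal migration protein astrotactin.

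The mature sequences are shown because the arms are told apart only by them and because the seed largely sets which targets an arm can pair with. All 10 names, the 8 members and the other arms miR-137-5p and miR-218-2-3p, were matched in RefSeq (GRCm38.p6). Each is written 5′ to 3′ with the seed in capitals.
mmu-miR-137-3p: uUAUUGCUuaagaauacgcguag
mmu-miR-137-5p: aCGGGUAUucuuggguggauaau
mmu-miR-138-5p: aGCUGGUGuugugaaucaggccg
mmu-miR-138-1-3p: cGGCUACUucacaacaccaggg
mmu-miR-138-2-3p: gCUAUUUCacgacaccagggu
mmu-miR-218-5p: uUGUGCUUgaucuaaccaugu
mmu-miR-218-1-3p: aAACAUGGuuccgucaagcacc
mmu-miR-218-2-3p: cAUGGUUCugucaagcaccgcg
mmu-miR-488-3p: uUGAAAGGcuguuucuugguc
mmu-miR-488-5p: cCCAGAUAauagcacucucaa
The 10 arms carry 10 different seeds and are 21 to 23 bases long, so a comparison of levels between arms is one of near-equal length. In the RefSeq table, miR-7002-3p shares the seed of miR-218-5p and miR-496b that of miR-218-1-3p. Neither was analysed here.

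The 10 arms come from 6 hairpins, all annotated on the plus strand of GRCm38. Mir137 lies on chromosome 3 from 118433857 to 118433929 and overlaps an exon of the non-coding gene Gm26871 (118430324 to 118530022). Mir488 lies on chromosome 1 from 158505625 to 158505733, in an intron of Astn1 (158362273 to 158691781). Mir218-1 lies on chromosome 5 from 48223942 to 48224051, in an intron of Slit2 (47983138 to 48307733). Mir218-2 lies on chromosome 11 from 35616816 to 35616925, in an intron of Slit3 (35121224 to 35708507). Mir138-1 lies on chromosome 9 from 122682876 to 122682974 and overlaps an exon of the transcribed pseudogene Gm47135. Mir138-2 lies on chromosome 8 from 94324311 to 94324381 and overlaps an exon of the lincRNA C78859. The mature miR-138-5p of both loci is 1 sequence, and so is the miR-218-5p of both loci. Reads of these arms therefore cannot be assigned to 1 locus, and only the 3p arms tell the loci apart.

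The libraries held 14796519 to 17088611 reads over the annotated miRNAs. Values are normalized counts, in which reads are scaled by 1 size factor per library, and 1 read was worth 0.907 to 1.10 normalized counts. The neuronal miR-9-5p and miR-128-3p, the 2 most abundant in a list of neuron-linked miRNAs, ranged from 1441286 to 2312130 and from 1040905 to 1997698 normalized counts, so RNA of neural tissue was present in every library. Other neuronal miRNAs were lower with Ang-(1-7) (miR-124-3p and miR-9-3p, given with that list). Some lists of other tissues differed between the groups. The summed level of 5 muscle miRNAs was 15469 to 22275 with Ang-(1-7) and 43012 to 86906 without it. That of 10 miRNAs listed as epithelial was 279064 to 855812 with Ang-(1-7) and 15701 to 30674 without it. Not all of that list differed, since miR-203-3p and miR-205-5p overlapped between the groups. In bulk tissue, fewer cells of a type and less RNA per cell cannot be told apart.

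All of the abundant arms were higher in the right SN after Ang-(1-7), by 1.72-fold to 2.65-fold. These were miR-137-3p, miR-138-5p, miR-218-5p and miR-488-3p, and in each of them every Ang-(1-7) library lay above every hα-syn(A53T) library. Of the scarcer members, miR-138-1-3p differed less and the other 3 overlapped between groups, with miR-218-1-3p and miR-488-5p at nearly the same mean in both. The fit was limma with a trend on log2(normalized count + 1) over the 1065 annotated miRNAs that reached 1 normalized count in 3 or more libraries, and all 8 members entered it. At an adjusted p under 0.05 from limma, 4 of the 8 members were called higher, beside 5.54% of all miRNAs tested, and 4 were not called. None was called lower in limma (0 at an unadjusted p under 0.05, and 0 in voom), beside 4.04% of all tested. The groups did not overlap for 5 of the 8, all higher with Ang-(1-7), beside 14.2% of all tested that were higher without overlap and 14% that were lower. The median log2 fold change was 0.72 for the members and -0.04 for all tested. Since the members were listed with this comparison known, nothing is read from these counts. The 4 calls became 1 without Ang-(1-7) replicate 1 (miR-138-5p), 2 without Ang-(1-7) replicate 2 (miR-138-5p and miR-488-3p) and 0 when replicate 1 or replicate 2 of the hα-syn(A53T) group was left out of the limma fit, where 4 members still had an unadjusted p under 0.05 in each. The log2 fold change of each of the 4 abundant arms stayed above 0 in all of these fits.

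**Figure D1:**
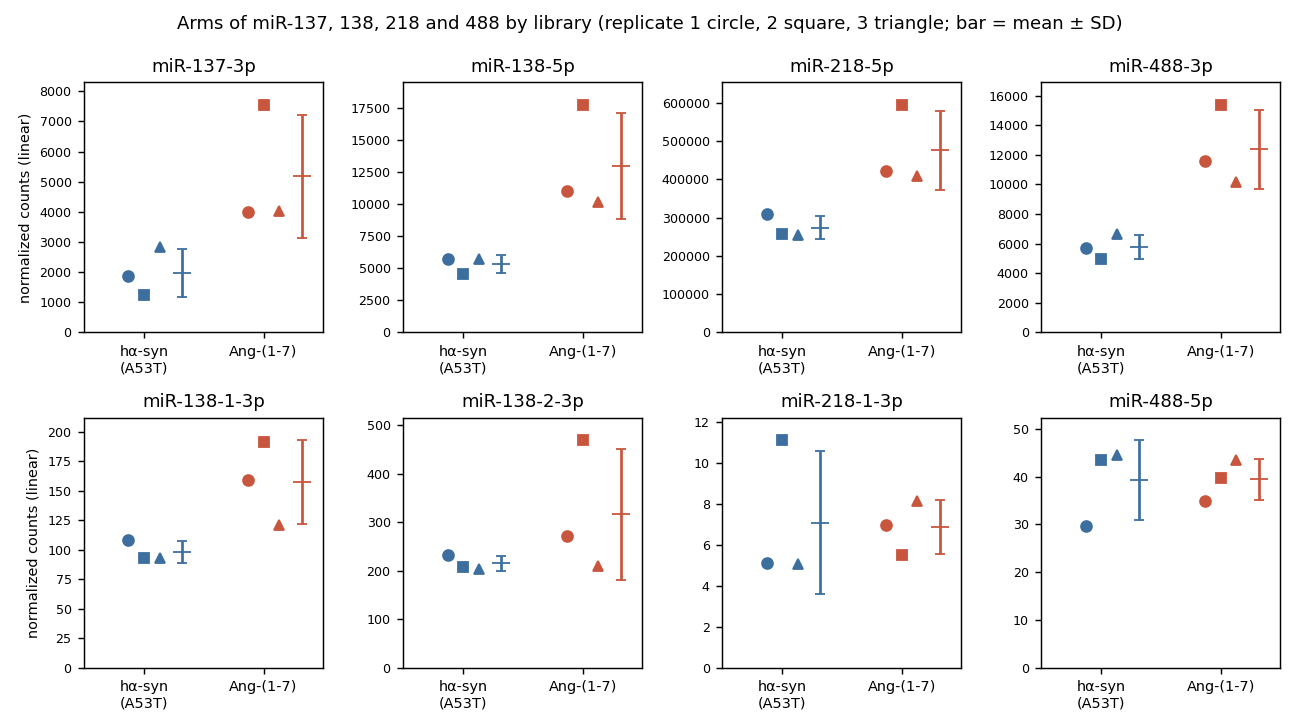
Normalized counts (linear axes from 0) of the 8 members in the 3 hα-syn(A53T) libraries (blue) and the 3 Ang-(1-7) libraries (red), with the mean ± SD of each group beside the points. In the upper row every Ang-(1-7) point lies above every hα-syn(A53T) point, while the groups overlap for miR-138-2-3p, miR-218-1-3p and miR-488-5p.

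mmu-miR-137-3p, the guide arm that acts on presynaptic genes, had the largest fold change of the members. It measured 3980, 7544 and 4035 normalized counts in the Ang-(1-7) libraries (in each group, replicates 1 to 3) against 1874, 1225 and 2826 in the libraries of hα-syn(A53T) alone. Ang-(1-7) replicate 2 was the highest library by far, hα-syn(A53T) replicate 2 was the lowest, and the groups did not overlap. The means were 5186 ± 2041 with Ang-(1-7) and 1975 ± 805 without it (SD, n = 3). On the log2 scale the fold change was 1.41 with a standard error of 0.35 (95% interval 0.63 to 2.19), or 2.65-fold. It was 1.10 when replicate 2 of either group was left out, and it was not called in either fit. When the hα-syn(A53T) group lacked its replicate 2, miR-138-5p had the larger value, 1.13. Its spread within a group was wide, with a coefficient of variation of 39.4% with Ang-(1-7) and 40.8% without it. The other arm, miR-137-5p, measured 101, 87.0 and 110 normalized counts in the Ang-(1-7) libraries against 67.7, 52.8 and 62.7 in the libraries of hα-syn(A53T) alone. Here too the groups did not overlap, but Ang-(1-7) replicate 2, the highest library for the 3p arm, was the lowest of its group. Its log2 fold change came to 0.69 with a standard error of 0.27 (95% interval 0.09 to 1.29).

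mmu-miR-138-5p, the arm known from dendritic spines, was 2.37-fold higher with Ang-(1-7). It measured 11004, 17715 and 10150 normalized counts in the Ang-(1-7) libraries against 5732, 4519 and 5753 in the libraries of hα-syn(A53T) alone. The lowest Ang-(1-7) library was far above the highest hα-syn(A53T) library, and Ang-(1-7) replicate 2 again stood above the rest. The means were 12956 ± 4143 and 5335 ± 706 (SD, n = 3), and the log2 fold change was 1.24 ± 0.25 (standard error, with a 95% interval 0.69 to 1.80). The scarce arm of the first locus, miR-138-1-3p, measured 159, 192 and 121 normalized counts in the Ang-(1-7) libraries against 109, 92.7 and 93.1 in the hα-syn(A53T) libraries, without overlap. Its log2 fold change came to 0.65 with a standard error of 0.27 (95% interval 0.04 to 1.26). The scarce arm of the second locus, miR-138-2-3p, measured 272, 468 and 209 normalized counts in the Ang-(1-7) libraries against 233, 208 and 204 in the libraries of hα-syn(A53T) alone. These groups overlapped, since Ang-(1-7) replicate 3 lay within the range of the hα-syn(A53T) libraries. Its log2 fold change came to 0.47 with a standard error of 0.31 (95% interval -0.23 to 1.17), and without Ang-(1-7) replicate 2 it was 0.15.

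mmu-miR-218-5p, known from motor neurons and the brainstem, was the most abundant member and ranked 12 of the 1393 annotated miRNAs by mean level. It measured 422222, 593820 and 409384 normalized counts in the Ang-(1-7) libraries against 308024, 257728 and 254556 in the libraries of hα-syn(A53T) alone. The groups did not overlap, and the hα-syn(A53T) libraries lay close together. It took 2.94% ± 0.382 of the annotated reads with Ang-(1-7) and 1.73% ± 0.283 without it (SD, n = 3). On the log2 scale the fold change was 0.78 with a standard error of 0.21 (95% interval 0.31 to 1.25), or 1.72-fold, the smallest of the 4 abundant arms. Its call also ended with some other scalings and filters, and its log2 fold change ran from 0.51 to 0.88 over all settings. Both 3p arms had few reads. miR-218-1-3p had 7, 5 and 9 reads with Ang-(1-7) and 5, 12 and 5 without it, which is 6.89 ± 1.33 and 7.10 ± 3.48 normalized counts (SD, n = 3). These groups overlapped, and the 95% interval of the log2 fold change, -0.98 to 1.04, is wide. miR-218-2-3p had 21, 29 and 23 reads with Ang-(1-7) and 17, 9 and 10 without it, without overlap, and the log2 fold change was 1.02 ± 0.40 (standard error, with a 95% interval 0.13 to 1.90).

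mmu-miR-488-3p, from the intron of Astn1, behaved much like miR-138-5p in level and in difference. It measured 11589, 15368 and 10168 normalized counts in the Ang-(1-7) libraries against 5700, 4978 and 6653 in the libraries of hα-syn(A53T) alone. The groups were well apart, and Ang-(1-7) replicate 2 was again the highest. The means were 12375 ± 2688 and 5777 ± 840 (SD, n = 3), and the log2 fold change was 1.09 ± 0.22 (standard error, with a 95% interval 0.59 to 1.59), or 2.12-fold. The other arm of the same hairpin, miR-488-5p, measured 35.0, 39.7 and 43.5 normalized counts in the Ang-(1-7) libraries against 29.7, 43.6 and 44.5 in the hα-syn(A53T) libraries. Its groups overlapped throughout, and the log2 fold change was 0.02 ± 0.31 (standard error, with a 95% interval -0.67 to 0.71).

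**Figure D2:**
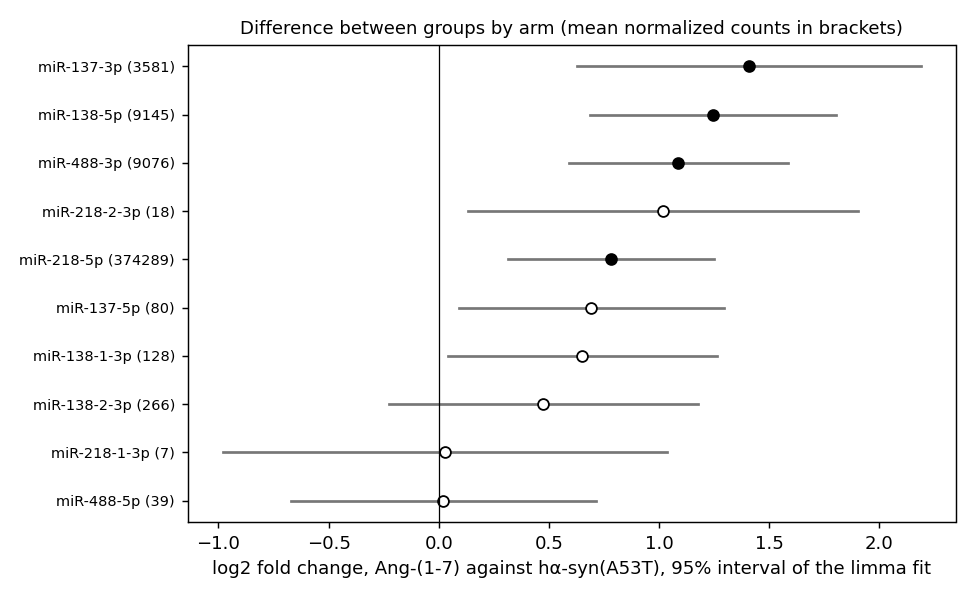
Log2 fold change of the 10 arms, Ang-(1-7) against hα-syn(A53T), with the 95% interval of the limma fit (lines) and the mean normalized count in brackets; filled points are arms with a mean above 1000. The filled points run from 0.78 to 1.41, and the intervals of miR-138-2-3p, miR-218-1-3p and miR-488-5p include 0. The members were listed with this difference known, so the intervals are a description and not a test.

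The abundant and scarce arms were compared within each library, where the scaling cancels. For miR-137 and miR-488 these are the arms of 1 hairpin. miR-138-5p and miR-218-5p hold reads of both of their loci, so their ratios to a 3p arm also depend on the other locus. Per read of miR-488-5p there were 331, 387 and 233 of miR-488-3p in the Ang-(1-7) libraries and 192, 114 and 149 in the libraries of hα-syn(A53T) alone. Every Ang-(1-7) ratio was the higher, with a geometric mean of 311 against 148. For miR-138-5p against miR-138-1-3p the ratio was 69.3, 92.4 and 84.1 with Ang-(1-7) and 52.7, 48.8 and 61.8 without it. Against miR-138-2-3p it was 40.5, 37.8 and 48.6 with Ang-(1-7) and 24.6, 21.8 and 28.1 without it. In both, the groups did not overlap, so miR-138-5p was higher with Ang-(1-7) also relative to either of its 3p arms. For miR-137 the ratio of the 3p to the 5p arm was 39.5, 86.7 and 36.8 with Ang-(1-7) and 27.7, 23.2 and 45.0 without it, and the groups overlapped. The ratio of miR-218-5p to miR-218-2-3p was 20129, 18583 and 19619 with Ang-(1-7) and 17675, 30904 and 25159 without it, also with overlap. Against miR-218-1-3p it ran from 23178 to 107783 over the 6 libraries, and the groups overlapped as well. The scarce arms of miR-488 and miR-218 rest on 5 to 48 reads per library, so these ratios carry a large counting error.

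**Figure D3:**
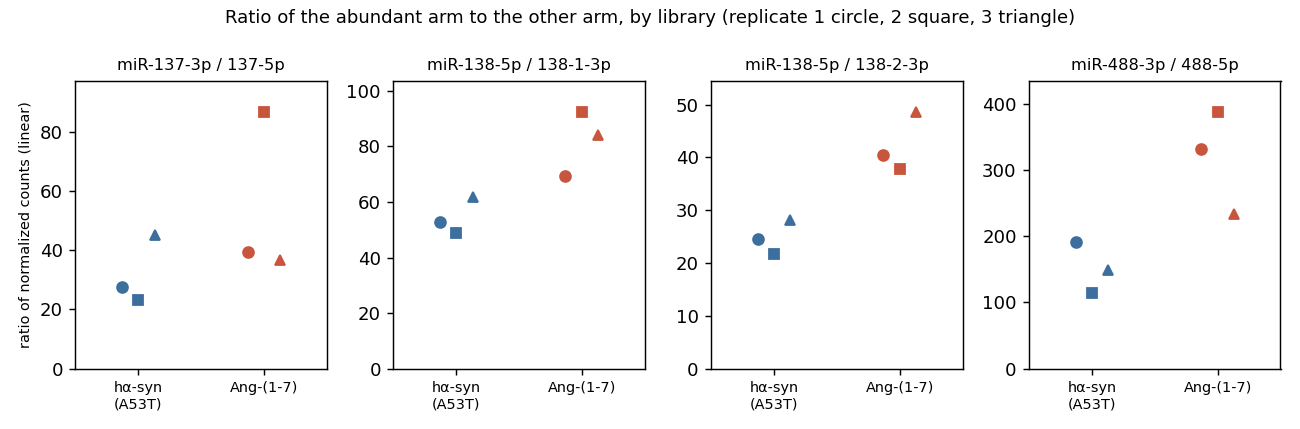
Ratio of the abundant arm to the other arm of a hairpin in each library (linear axes from 0, hα-syn(A53T) blue, Ang-(1-7) red). The ratio is higher in every Ang-(1-7) library for miR-138 against both of its 3p arms and for miR-488, and the groups overlap for miR-137.

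Each 3p arm comes from 1 locus, so its reads were set against those of the other 3p arm. Whether both arms are kept and captured alike was not tested, so these are shares of reads and not of what the loci make. Of the reads of both miR-138 3p arms, miR-138-2-3p made up 65.8% ± 4.46 with Ang-(1-7) and 68.7% ± 0.485 in the other group (SD, n = 3). The share was 63.1% (95% exact binomial interval 58.4 to 67.7) in Ang-(1-7) replicate 1, 71.0% (67.1 to 74.6) in replicate 2 and 63.4% (58.2 to 68.3) in replicate 3, so the Mir138-2 arm was the larger in both groups and the groups overlapped. Of the reads of both miR-218 3p arms, miR-218-2-3p from the Slit3 intron made up 77.4% ± 7.02 with Ang-(1-7) and 62.3% ± 17.6 in the other group (SD, n = 3). These shares rest on 15 to 34 reads per library, and that of hα-syn(A53T) replicate 2, 42.9%, had an interval of 21.8 to 66.0. The groups overlapped, and a difference between them was not tested. The intervals cover counting error only.

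The abundant arms stood high and low in much the same libraries. Ang-(1-7) replicate 2 was the highest library for each of them, and hα-syn(A53T) replicate 2 was the lowest for miR-137-3p, miR-138-5p and miR-488-3p. miR-218-5p was lowest in hα-syn(A53T) replicate 3. After the mean of each group was subtracted, the log2 values of the 6 pairs among these 4 arms had Pearson correlations of 0.57 to 0.94 (6 libraries), the closest being miR-137-3p and miR-138-5p, each with miR-488-3p. The arms of 1 library share its size factor and its tissue, so these are descriptions of 6 points. Arms of 1 hairpin did not always go together on the same measure, with -0.04 for both pairs of arms, miR-137-3p with miR-137-5p and miR-488-3p with miR-488-5p. miR-218-5p had 0.86 with miR-218-2-3p and -0.52 with miR-218-1-3p, and miR-138-5p had 0.82 with miR-138-1-3p and 0.91 with miR-138-2-3p.

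**Figure D4:**
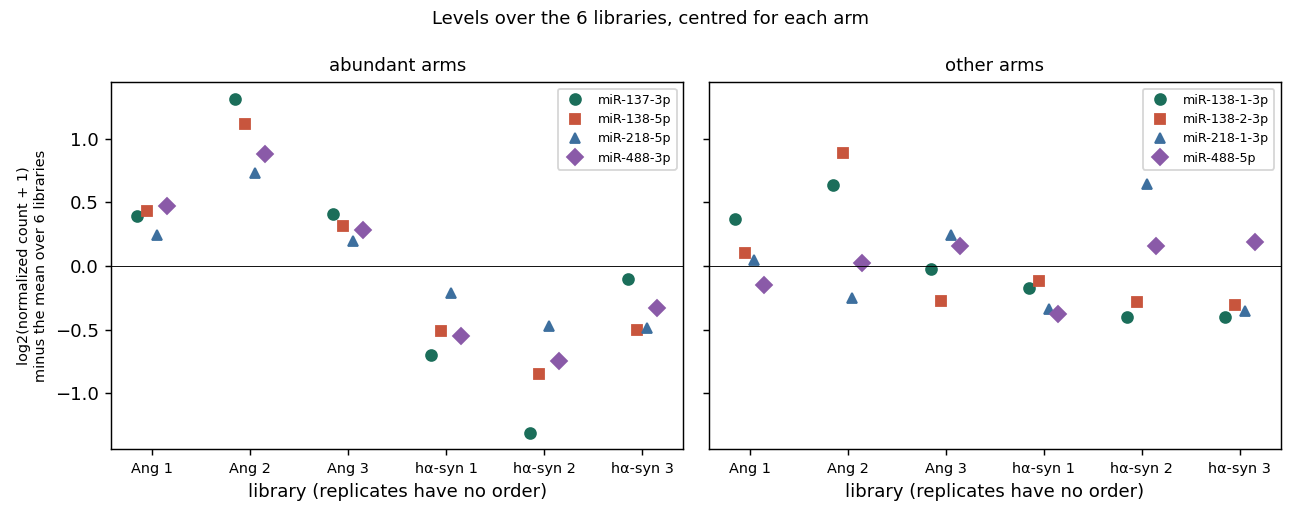
log2(normalized count + 1) of each arm minus its mean over the 6 libraries, for the abundant arms (left) and the other arms (right); points of 1 library are set side by side. The abundant arms stand highest in Ang-(1-7) replicate 2 and below 0 in the 3 hα-syn(A53T) libraries, whereas miR-218-1-3p and miR-488-5p lie on both sides of 0 in each group.

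The miRNAs most like each member were sought among 441 other annotated miRNAs with a mean of at least 100 normalized counts, by the Pearson correlation of log2(normalized count + 1) over the 6 libraries. With so many candidates and 6 points, high values are common, and the group difference itself adds to them. miR-137-3p was most like miR-409-5p, miR-221-5p and miR-221-3p (0.99 for each). miR-138-5p was most like miR-329-5p and miR-1983 (both 1.00) and miR-341-3p (0.99). miR-488-3p was most like miR-1983, miR-221-3p and miR-132-5p (0.99 for each), and miR-218-5p was most like miR-29a-5p, miR-153-3p and miR-329-5p (0.98 for each). For miR-138-1-3p these were miR-153-5p and miR-148a-5p (both 0.99) and miR-344-3p (0.98), and for miR-138-2-3p miR-299a-3p, miR-181a-1-3p and miR-299b-3p (0.98 for each). miR-488-5p reached 0.86 at most, with miR-322-3p, followed by miR-433-5p and miR-1839-5p (both 0.83). miR-218-1-3p reached 0.79, with miR-421-3p, followed by miR-24-3p (0.67) and miR-375-3p (0.64).

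Most other miRNAs linked to neurons or synapses did not pass the test. Of 30 listed and tested, 4 rose, 1 fell and 25 were not called, beside 5.54% of all tested called higher and 4.04% lower. Without overlap, 7 of the 30 were higher with Ang-(1-7) and 3 were lower, beside 14.2% and 14% of all tested. The median log2 fold change was 0.11, against -0.04 for all tested. The 4 called higher were miR-132-3p and miR-132-5p, which active neurons make, miR-153-3p and miR-7a-5p. The 1 called lower was miR-124-3p, an abundant miRNA of neurons. All 5 were named after their values were seen. miR-124-3p measured 46739, 54657 and 79626 normalized counts in the Ang-(1-7) libraries against 102230, 112701 and 111801 with hα-syn(A53T) alone, so every Ang-(1-7) library was the lower. miR-9-3p, the other arm of the miR-9 hairpin and also named after its values were seen, had 70014, 43079 and 90046 with Ang-(1-7) and 103063, 94955 and 142345 without it, again with every Ang-(1-7) library the lower, but it was not called. Among the most abundant of the list, the log2 fold changes were 0.14 ± 0.22 for miR-9-5p, 0.66 ± 0.19 for miR-128-3p and 0.17 ± 0.18 for miR-127-3p (± standard error). None of the 3 was called. For miR-128-3p every Ang-(1-7) library was nevertheless above every hα-syn(A53T) library. The same held for miR-212-3p and miR-7b-5p, named after their values were seen and also not called. The call of miR-124-3p ended when any library but Ang-(1-7) replicate 3 was left out. The number called higher became 2 without Ang-(1-7) replicate 1, and 2 or 1 when the hα-syn(A53T) group lacked its replicate 1 or its replicate 2.

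The miRNAs miR-10a and miR-10b, markers of hindbrain and spinal cord, tended to run opposite to the abundant arms. With their mean log2 level, the Pearson correlation over the 6 libraries was -0.74 for miR-137-3p, -0.84 for miR-138-5p, -0.86 for miR-218-5p and -0.81 for miR-488-3p. The group difference adds to these values. After the mean of each group was subtracted, they were -0.40, -0.69, -0.75 and -0.62. miR-10b-5p, whose gene sits among the Hox genes, measured 1118, 577 and 21338 normalized counts in the Ang-(1-7) libraries against 6887, 48662 and 39970 in the others. For miR-10a-5p the values were 1073, 792 and 10386 against 5772, 25914 and 19341. Ang-(1-7) replicate 2, the highest library for the abundant arms, was the lowest for both, and hα-syn(A53T) replicate 2, the lowest for 3 of those arms, was the highest. The groups overlapped, because Ang-(1-7) replicate 3 held more of both than hα-syn(A53T) replicate 1. When both miR-10 arms entered the fit as a covariate (their mean log2 level), the log2 fold changes were 1.05 (standard error 0.46) for miR-137-3p, 0.88 (0.30) for miR-138-5p, 0.51 (0.26) for miR-218-5p and 0.83 (0.28) for miR-488-3p. None of the 8 members was then called in limma, 3 had an unadjusted p under 0.05, and 13 miRNAs were called higher and 9 lower over all tested. Without Ang-(1-7) replicate 3, and without the covariate, the 4 abundant arms were all called. In the libraries left, miR-10b-5p no longer overlapped between the groups. Its log2 fold change was -4.88 there, against -3.31 with all 6 libraries. Group and miR-10 level cannot be told apart in that fit.

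**Figure D5:**
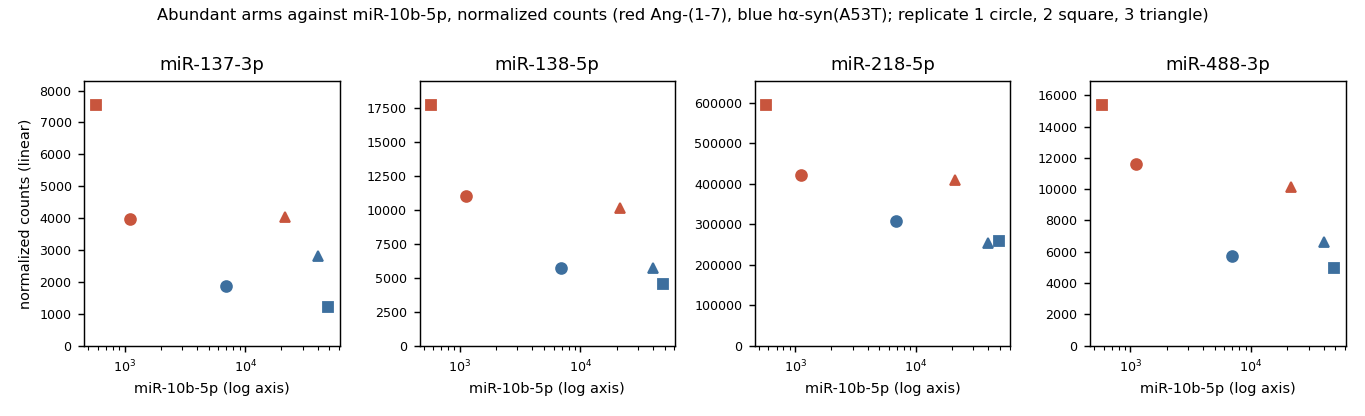
Normalized counts of the 4 abundant arms (vertical, linear from 0) against miR-10b-5p (horizontal, log axis) in the 3 Ang-(1-7) libraries (red) and the 3 hα-syn(A53T) libraries (blue). Ang-(1-7) replicate 2 (red square) is highest for each arm at 577 of miR-10b-5p, and Ang-(1-7) replicate 3 (red triangle) lies above the blue points at 21338.

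Across markers of other cells, 7 Hox-encoded miRNAs summed to 1380 to 32139 normalized counts with Ang-(1-7) and 13060 to 76185 without it. The 5 of the myelin-forming oligodendrocytes summed to 35887 to 66082 and 60729 to 168389. The 5 of red blood cells summed to 2707 to 3462 and 7048 to 13620. The 6 of endothelium and mural cells summed to 394174 to 461743 and 415621 to 478882, and the 6 of leukocytes and microglia to 15357 to 33942 and 16288 to 35954, so these last 2 lists overlapped widely. Called lower were 1 of the Hox list, 1 of oligodendrocytes, 4 of muscle and 2 of red blood cells, beside 4.04% of all tested. Called higher were 8 of the epithelial list, beside 5.54% of all tested. These were miR-200a-3p, miR-200b-3p, miR-200c-3p, miR-141-3p, miR-429-3p, miR-183-5p, miR-96-5p and miR-182-5p. The log2 fold changes of miR-203-3p and miR-205-5p, of the same list, were 0.32 ± 0.48 and 0.63 ± 0.39 (± standard error). Neither was called, and whether the amount of epithelium differed was not tested. The 2 of red blood cells were miR-486a-5p and miR-486b-5p, which share their values and so are 1 result. The 1 of the Hox list was miR-196a-5p, with 0 reads in each Ang-(1-7) library and 4, 10 and 7 in the hα-syn(A53T) libraries. It passed the filter only through the hα-syn(A53T) group, so its call is not read as a difference. No list had a member at 0 in all 6 libraries. The part of these other cells in the levels of miR-137, miR-138, miR-218 and miR-488 was not tested. The fit with the miR-10 covariate cannot test it, because the covariate itself went with the group. The log2 fold change was -2.78 for miR-10a-5p and -3.31 for miR-10b-5p.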

How the data were processed

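Right SN small RNA was measured in 6 libraries, 3 per group. The authors, by their methods and processing notes, aligned reads with Bowtie 1.2.3 (build mm9) and normalized them with DESeq2 1.10.1. The sources used here do not give the trimming, miRBase release or counting. The signal values deposited by the authors are normalized counts, and dividing each by the value of 1 read in its library gave whole numbers (tolerance 1e-06, 100% of annotated values). The authors' own fold changes and p-values were not used, and neither were the predicted loci. Since the values are normalized, limma 3.58.1 (R 4.3.3) was fitted with a trend on log2(value + 1), with Benjamini-Hochberg adjustment over the 1065 miRNAs tested. A fold change on this scale understates that of scarce arms. The members and lists were chosen with earlier results of these data known. Named were all members, the other arms of their hairpins, miRNAs of shared seed, the 3 most alike per member and the most abundant of each list. Other members of the lists were named after their values were seen. No pair of libraries in a group was a copy (chi-square divided by its degrees of freedom, 292 to 1804). The fit was also run on simulated counts of independent libraries, with the same dispersion for every miRNA. That dispersion was below the spread of miR-137-3p here, so the run does not bear on the calls. Sequences and positions come from RefSeq GRCm38.p6 and GENCODE vM21, and Python 3.11.15, pandas 2.3.3, scipy 1.17.1 and matplotlib 3.10.9 were used.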

Additional observations from a re-analysis of the deposited data

How the results depend on the processing

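With 3 libraries a group, 1 library could end the calls. The 59 miRNAs called higher and 43 called lower became 13 and 9 when the mean miR-10a/b-5p level entered as a covariate, and ran from 19 to 62 and from 8 to 49 with 1 library left out. The members called higher were 4, 0 with that covariate and 0 to 4 with 1 library left out. Of the other neuron-linked miRNAs, the 4 called higher became 0 with the covariate and ran from 1 to 6 with 1 library left out. The 1 called lower became 0 with the covariate, 0 with quantile normalization and 2 with the replicate number as a block, and ran from 0 to 2. With the replicate block, 57 miRNAs were called higher, 55 lower, and 4 members higher. Same-numbered libraries did not all deviate together (correlations of 0.12, -0.09 and 0.18), so the numbers were not taken as pairs. A deposited summary sheet numbers the hα-syn(A53T) libraries differently from the labels, which makes the block uncertain. Scaled to the upper quartile, 46 were higher and 53 lower, with the median of all miRNAs shifted by -0.11. miR-218-5p alone of the called members lost its call with that scaling, with quantile normalization, without a filter, with a pseudocount of 0.1 and with totals without the 5 most abundant miRNAs. This last setting and voom, which called 4 members, were chosen after the data were seen. The pseudocount of 5, the filter of 50 in every library of 1 group and library totals kept 4 members called. miR-138-2-3p fell to a log2 fold change of -0.06 with the covariate. The planned count tests were not run, because annotated miRNAs and predicted loci carry separate size factors and the deposited columns as a whole did not come out as whole reads. Arms with few reads, such as miR-218-1-3p, limit the precision. The cause of the lost calls was not tested.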
